A study of Mus musculus with 8 samples.

Results

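Glycolysis and the routes that branch from it were examined in mouse neutrophils through 34 genes, taken by symbol from the 49315 gene identifiers of the count tables. They encode glucose transporters, the enzymes of glycolysis and their isozymes, lactate handling, pyruvate dehydrogenase kinases, glycogen metabolism and the pentose phosphate pathway. Each symbol matched 1 identifier, and all 34 passed the filter on low counts that left 14909 genes for testing. Neutrophils were collected from the peritoneal cavity of C57BL/6 mice, an inbred strain, at 2 months of age. Casein, a milk protein, had been used to draw them there, and the cells were separated by density before their RNA was sequenced.

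The 8 libraries formed 4 groups of 2. Mice deficient in H2R, the histamine H2 receptor, gave low-density libraries 1 and 2 and high-density libraries 1 and 2. Wild-type mice gave low-density libraries 2 and 4 and high-density libraries 2 and 4. The strain, the age and the casein were shared by all groups. The labels describe neither the allele behind the deficiency nor how many animals went into a library. The p-values therefore cover library-to-library spread alone, and that spread may be technical.

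Glucose enters a cell through facilitative transporters, is trapped by hexokinase and is split in the cytosol into pyruvate, with a net gain of ATP. Neutrophils hold few mitochondria and are known to draw most of their ATP from this route, turning pyruvate into lactate, which leaves the cell with a proton. They also store glycogen, and they feed phosphorylated glucose into the pentose phosphate pathway, whose NADPH serves the oxidative burst.

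Each library held 19862716 to 24199215 counts in genes. The 4 low-density libraries held 21493 to 22675 genes with at least 1 count, against 19149 to 19756 in the 4 high-density libraries. Hrh2, the gene of the H2 receptor, had 10.2 to 27.0 CPM (its counts scaled to a common library total) in H2R-deficient libraries and 28 to 91.7 CPM in wild-type libraries. Neither genotype difference of Hrh2 passed (edgeR adjusted p = 0.192 at high and 0.196 at low density), although DESeq2 called both lower (DESeq2 adjusted p = 0.0152 and 0.0270). The labels do not say which part of the gene is altered, and these counts check the genotype only in part. All 15 markers of mature neutrophils were detected in every group. Their summed level was 32839 and 42811 CPM in H2R-deficient low-density libraries, against 64142 and 64401 CPM in H2R-deficient high-density libraries. Wild-type sums were 46384 and 59033 CPM at low density, against 63358 and 61367 CPM at high density. At low density 15 of the 15 were called lower in H2R-deficient and 4 of 15 in wild-type cells (edgeR, TMM scaling, adjusted p under 0.05). Of all genes tested, 23.9% were called lower in H2R-deficient and 4.15% in wild-type cells.

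Several lists of markers of other cells moved with density. The 9 B cell markers summed to 1110.1 and 1272 CPM in H2R-deficient low-density libraries, against 33.9 and 49.8 CPM in the high-density ones. In wild-type libraries they summed to 516 and 209.9 CPM at low density, against 39.8 and 47.0 CPM at high density. The 8 dendritic cell markers summed to 713 and 948 CPM in H2R-deficient low-density libraries, against 8.70 and 11.0 CPM in the high-density ones. Their wild-type sums were 567 and 236 CPM at low density, against 6.50 and 23.9 CPM at high density. The 8 markers of dividing cells summed to 446 and 294 CPM in H2R-deficient low-density libraries, against 80.8 and 78.7 CPM in the high-density ones, and to 256 and 188 CPM in wild-type low-density libraries, against 83.5 and 118 CPM. At low density 9 of 9 B cell markers, 5 of 7 dendritic cell markers tested and 8 of 8 markers of dividing cells were called higher in H2R-deficient cells, and 8, 5 and 6 in wild-type cells. Of all genes tested, 30.0% were called higher in H2R-deficient and 8.51% in wild-type cells. The 8 NK cell markers summed to 10.9 to 20.4 CPM in low-density and 0.78 to 1.75 CPM in high-density libraries. The 7 erythroid markers went the other way, with 0.17 to 1.66 CPM in low-density and 21.6 to 183 CPM in high-density libraries. Monocyte sums were 769 and 630 CPM in H2R-deficient low-density libraries, against 830 and 611 CPM in the high-density ones. In wild-type cells they were 833 and 810 CPM, against 1316 and 912 CPM. Over all gene counts, T cell, macrophage, platelet and eosinophil sums were higher at low density in H2R-deficient cells, and mast cell sums lower. In wild-type cells T cell and, barely, macrophage sums were higher, eosinophil sums lower, and platelet and mast cell sums overlapped. With TMM scaling macrophage, monocyte and mast cell sums were lower at low density in both genotypes. T cell, platelet and eosinophil sums then overlapped in H2R-deficient cells. The H2R-deficient eosinophil rise lay in Il5ra, at 12.8 and 13.6 TMM-scaled CPM at low density, against 0.934 and 1.47. Siglecf, Ccr3 and Prg2 were lower there on that scale, and Epx was at 0. Mitochondrial genes took 0.59% of counts in both H2R-deficient low-density libraries, against 0.311% and 0.159% in the high-density ones. Their wild-type shares were 0.387% and 0.284% at low density, against 0.341% and 0.246% at high density. No B cell, dendritic cell or mature neutrophil marker was at 0 throughout a group, and Siglech alone among them had 3 or fewer counts in both libraries of each low-density group. These values stand beside every density result that follows, and their part in those results was not tested. In bulk RNA, fewer cells of a type and less RNA per cell cannot be told apart.

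The first question was whether the 34 genes differ between low-density and high-density neutrophils. In H2R-deficient cells, after TMM scaling (trimmed mean of M values, which sets the bulk of genes level between libraries), 1 gene was higher and 22 were lower in low-density libraries. The higher one was Slc16a1, a lactate and pyruvate carrier of the plasma membrane. The lower ones included the transporter Slc2a1, the hexokinases Hk1 and Hk3, the lactate exporter Slc16a3 and the glycogen phosphorylase Pygl. Of all genes tested, 30.0% were called higher and 23.9% lower in this comparison (edgeR's quasi-likelihood test, adjusted p under 0.05 by Benjamini-Hochberg over all genes). The median log2 fold change was -0.83 over the 34 genes, against 0.10 over all genes. On the TMM scale, both low-density libraries lay below both high-density ones for 26 of the 34 and above for 3, against 37.1% and 43.9% of all genes. The 11 genes not called were Hk2, Pfkm, Aldoc, Tpi1, Eno3, Ldhb, Pdk1, Pdk3, Pdk4, Gbe1 and Tkt.

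Most of these calls depended on how the libraries were scaled, and with total counts only the sign turned for 15 of the 34 genes in H2R-deficient and 20 in wild-type cells. The 34 genes took 1.32% and 1.27% of all counts in H2R-deficient low-density libraries, against 1.5% and 1.36% in H2R-deficient high-density libraries. They took 1.35% and 1.28% in wild-type low-density libraries, against 1.34% and 1.30% in wild-type high-density libraries. As a share of counts the set was therefore nearly level, and in wild-type cells the densities overlapped. TMM factors were 1.114 to 1.493 in low-density and 0.742 to 0.808 in high-density libraries. With them the summed level became 8852 and 9442 CPM in H2R-deficient low-density libraries, against 19468 and 18359.9 CPM in the high-density ones. The wild-type sums became 10864 and 11455 CPM at low density, against 17197 and 16093 CPM at high density.

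With total counts only, the median of all genes stood at 1.0 in H2R-deficient cells rather than 0.10, and the median of the 34 genes at 0.08. The distance between both medians was -0.92 under either scaling, and 30 of the 34 genes lay below the median of all genes under either scaling. Total counts called 6 of the 34 higher, namely Hk2, Aldoc, Eno3, Slc16a1, Pdk4 and Tkt, against 51.6% of all genes. Of these, Pdk4 entered the tests only through its low-density counts. They called 4 lower, namely Slc2a1, Pfkfb4, Slc16a3 and Pygl, against 2.61% of all genes. Those 4, and Slc16a1 as higher, were the 5 of 23 calls that held under each of the 17 alternative settings tried. Without H2R-deficient high-density library 1 the TMM fit called 14 genes, 1 higher and 13 lower.

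**Figure D1:**
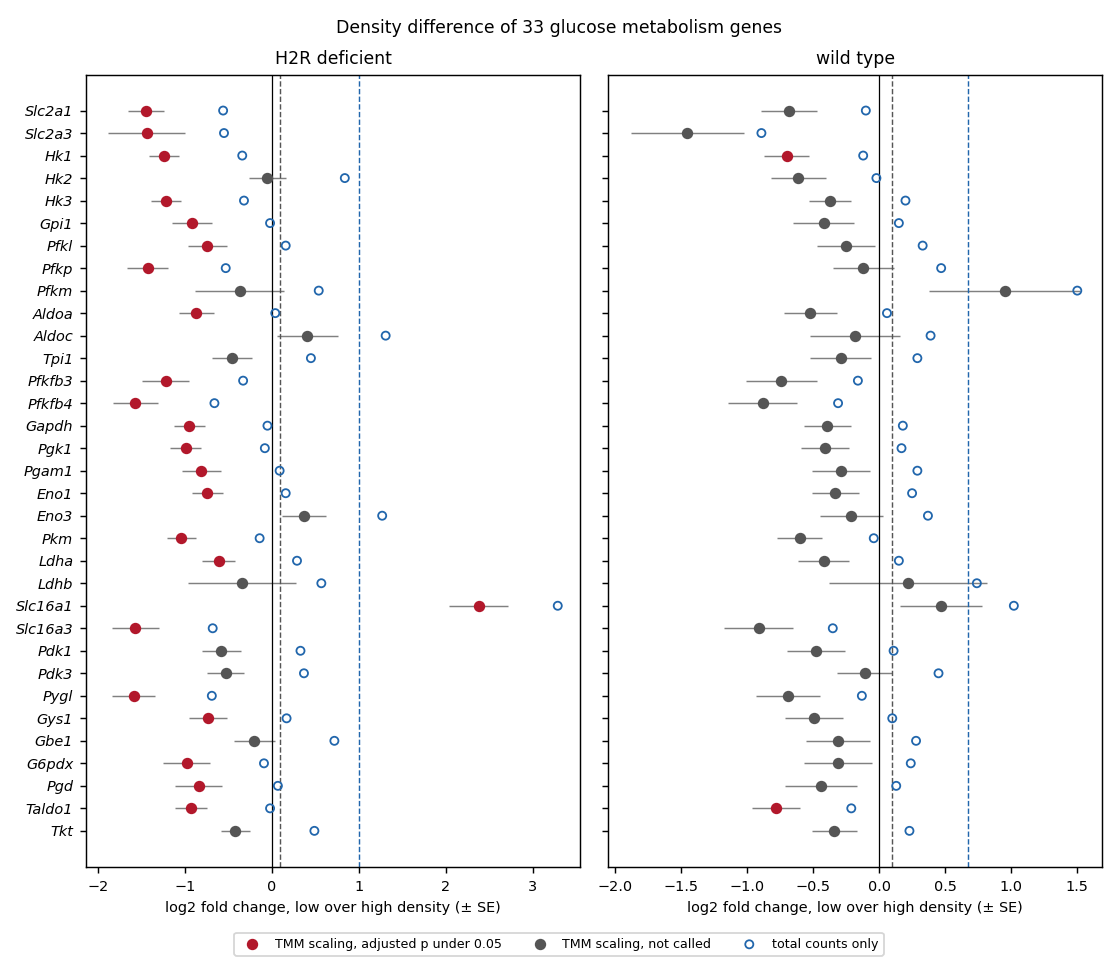
Log2 fold change of low over high density for the genes other than Pdk4, in H2R-deficient (left) and wild-type (right) cells. Filled points with bars are TMM-scaled estimates ± SE, red where called and grey where not. Open circles use total counts only. Dashed lines are the medians of all genes, at 0.10 with TMM in both genotypes, and at 1.0 in H2R-deficient and 0.67 in wild-type cells with total counts. Most points lie left of the line of their own scaling, and Slc16a1 lies to its right.

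In wild-type cells the same comparison called 2 of the 34 genes, both lower, where 8.51% of all genes were called higher and 4.15% lower. They were Hk1 and Taldo1, the transaldolase of the pentose phosphate pathway. Over TMM-scaled library sizes, Taldo1 stood at 418 and 483 CPM in wild-type low-density libraries, against 807 and 735 CPM in wild-type high-density libraries (log2 fold change -0.78 ± 0.18 SE, edgeR adjusted p = 0.0268). Levels of single genes below are on this scale. On it the densities did not overlap in either genotype for Taldo1, while over all gene counts they overlapped in H2R-deficient cells. Total counts instead called 2 higher, Slc16a1 and Pdk4, and none lower, where 32.3% of all genes were called higher and 0.832% lower. Neither TMM call was made without wild-type high-density library 2, low-density library 2 or low-density library 4. The median over the 34 genes was -0.40, against 0.10 over all genes. On the TMM scale, both low-density libraries lay below both high-density ones for 21 of the 34 and above for 2, against 27.0% and 35.1% of all genes. DESeq2 called 15 of the 34 lower and none higher, where it called 11.0% of all genes with an adjusted p lower and 9.6% higher. With total counts those medians were 0.17 and 0.67, and again 30 of the 34 lay below the median of all genes.

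Whether library numbers pair low-density with high-density libraries is not stated in the labels. Deviations of same-numbered libraries were positively correlated in both genotypes. With 2 libraries a group, such a correlation cannot show pairing. The fit with library number as a block therefore stands as an alternative only. In wild-type cells it called 9 of the 34 genes, where 11.1% of all genes were higher and 6.52% lower. Lower were Slc2a1, Slc2a3, Hk1, Hk2, Pfkfb4, Pkm, Slc16a3 and Taldo1, and Pdk4 was higher. In H2R-deficient cells the block called 2 higher and 23 lower, adding Pdk4 and Pdk1, where 31.9% of all genes were higher and 24.8% lower. In the fit without the block, 15 of the 34 genes had an unadjusted p under 0.05 in wild-type cells, as did 33.4% of all genes. The 15 became 8 without wild-type high-density library 2 or low-density library 4.

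Promoters of the members were searched for the core letters of the hypoxia response element, ACGTG and GCGTG, on both strands. Hif1a with its partner Arnt is known to bind that element in many glycolytic genes. CACGTG, the E-box, was searched too, and it holds ACGTG. RefSeq promoters on GRCm38.p6, running from 250 bases before to 50 bases after a start, were found for 33 members, 47 promoters in all. ACGTG or GCGTG stood in 37 of the 47 (78.7%), against 43.8% of 32851 promoters of the table. CACGTG stood in 4 (8.51%), against 7.15%. The median GC content was 60.7% in the 47 promoters and 52.7% in all of them, and both motifs hold CG. A match is a description of letters and not a binding site.

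Shown here are promoters of the 4 genes with the lowest adjusted p for density in H2R-deficient cells that held a match. Of these genes 1 was higher and 3 were lower at low density. Capitals mark ACGTG and GCGTG, or CACGT and CACGC where they lie on the other strand, and where matches overlap the run in capitals is longer.
Hk3 (chr13:55021336-55021635, minus strand, lower at low density): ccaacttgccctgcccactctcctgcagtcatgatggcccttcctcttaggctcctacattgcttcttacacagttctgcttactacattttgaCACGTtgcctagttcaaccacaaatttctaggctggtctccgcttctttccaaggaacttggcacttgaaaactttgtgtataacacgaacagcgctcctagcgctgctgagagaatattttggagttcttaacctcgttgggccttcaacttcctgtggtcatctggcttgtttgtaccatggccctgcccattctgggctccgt
Hk1 (chr10:62340372-62340671, minus strand, lower at low density): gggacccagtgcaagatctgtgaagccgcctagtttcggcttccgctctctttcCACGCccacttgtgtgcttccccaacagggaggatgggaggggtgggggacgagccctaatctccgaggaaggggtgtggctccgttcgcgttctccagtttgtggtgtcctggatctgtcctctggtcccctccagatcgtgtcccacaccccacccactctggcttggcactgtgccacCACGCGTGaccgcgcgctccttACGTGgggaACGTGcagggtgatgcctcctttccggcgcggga
Slc16a1 (chr3:104638414-104638713, plus strand, higher at low density): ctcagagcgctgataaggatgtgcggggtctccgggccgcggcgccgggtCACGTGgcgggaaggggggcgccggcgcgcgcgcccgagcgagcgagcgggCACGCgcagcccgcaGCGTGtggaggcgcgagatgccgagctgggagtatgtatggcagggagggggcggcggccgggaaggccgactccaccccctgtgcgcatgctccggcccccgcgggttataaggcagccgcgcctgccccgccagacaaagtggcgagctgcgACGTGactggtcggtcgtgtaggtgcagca
Slc2a1 (chr4:119108495-119108794, plus strand, lower at low density): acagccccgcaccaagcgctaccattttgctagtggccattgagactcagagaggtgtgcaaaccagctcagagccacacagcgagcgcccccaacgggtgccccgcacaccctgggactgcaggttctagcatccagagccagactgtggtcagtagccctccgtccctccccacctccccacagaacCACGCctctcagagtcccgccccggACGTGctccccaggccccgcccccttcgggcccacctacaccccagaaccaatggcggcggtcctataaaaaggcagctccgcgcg
Hk3 held 1 ACGTG match, and the Hk1 promoter shown held 2 ACGTG and 3 GCGTG matches, while the other Hk1 promoter in the table held none. Slc16a1 held 3 ACGTG matches over both strands and 2 GCGTG matches, and 2 of the 3 were the same CACGTG read on each strand. Slc2a1 held 1 of each. Holding a match was a condition for being shown, so the letters in these 4 genes cannot be read against the direction of change.

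Glucose uptake was represented by Slc2a1, which encodes GLUT1, and Slc2a3, which encodes the high-affinity GLUT3. Slc2a1 (chromosome 4, 119108711 to 119137983, plus strand, GRCm38) stood at 243 and 349 CPM over TMM-scaled library sizes in H2R-deficient low-density libraries, against 734 and 883 CPM in H2R-deficient high-density libraries. The groups were far apart, and Slc2a1 fell by 1.45 ± 0.21 on the log2 scale (SE, edgeR adjusted p = 0.000776; -0.56 with total counts, adjusted p = 0.0314). In wild-type cells Slc2a1 stood at 474 and 443 CPM at low density, against 757 and 710.5 CPM at high density, and missed the threshold (-0.68 ± 0.21, edgeR adjusted p = 0.0622; called in the fit with the block, adjusted p = 0.0283). Slc2a3 stood at 84.0 and 152 CPM in H2R-deficient low-density libraries, against 249.7 and 390.0 CPM in the high-density ones (-1.44 ± 0.44, edgeR adjusted p = 0.0232; -0.55 with total counts, not called). Its wild-type levels were 172 and 265 CPM at low density, against 808 and 387 CPM at high density. Wild-type high-density library 2 thus held the highest level of Slc2a3 of the 8.

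Per base of exon, Slc2a1 made up most of the pair's summed TPM (a scaled count that also divides by gene length). Its share was 85.7% and 82.6% in H2R-deficient low-density libraries, against 85.9% and 82.4% in the high-density ones. The wild-type share was 85.1% and 77.6% at low density, against 65.9% and 79.1% at high density. By counts alone it was 48.3% in wild-type high-density library 2 and 62.6% to 74.6% in the other libraries. A share within a library does not depend on how libraries are scaled, and this one showed no separation by density.

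Hexokinases phosphorylate glucose and so keep it in the cell. Hk3, the form typical of myeloid cells, was the main one, at 79.6% to 85.0% of the 3 hexokinases' TPM in the 8 libraries. Hk3 (chromosome 13, 55005985 to 55021385, minus strand) stood at 327 and 322 CPM in H2R-deficient low-density libraries, against 789.5 and 727 CPM in the high-density ones (-1.22 ± 0.17, edgeR adjusted p = 0.000543; -0.32 with total counts, not called). In wild-type cells Hk3 stood at 422 and 386 CPM at low density, against 512 and 535 CPM at high density (-0.37 ± 0.16, edgeR adjusted p = 0.145), and its sign turned to 0.20 with total counts. The 2 H2R-deficient high-density libraries held the highest Hk3 levels of the 8, on the TMM scale.

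Hk1 (chromosome 10, 62268855 to 62379908, minus strand), the widely expressed form that can dock on mitochondria, stood at 107 and 108 CPM in H2R-deficient low-density libraries, against 278 and 231 CPM in the high-density ones (-1.24 ± 0.17, edgeR adjusted p = 0.000592). In wild-type cells it stood at 125 and 110.4 CPM at low density, against 193 and 189.8 CPM at high density (-0.70 ± 0.17, edgeR adjusted p = 0.0326). Hk1 and Taldo1 were the members called in both genotypes, and with total counts Hk1 was called in neither (-0.34 and -0.12).

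Hk2, the form induced by growth signals in many tissues, differed from the other 2. It stood at 38.0 and 47.9 CPM in H2R-deficient low-density libraries, against 42.7 and 46.5 CPM in the high-density ones, and these overlapped (-0.05 ± 0.21, edgeR adjusted p = 0.843). Total counts called it higher there (0.84, adjusted p = 0.00901). In wild-type cells Hk2 stood at 50.4 and 39.0 CPM at low density, against 77.3 and 59.1 CPM at high density (-0.61 ± 0.21, edgeR adjusted p = 0.0831). Its share of hexokinase TPM was 5.91% and 7.43% in H2R-deficient low-density libraries, against 2.82% and 3.35% in the high-density ones. The wild-type shares were 6.13% and 5.25% at low density, against 7.42% and 5.58% at high density, so the H2R-deficient high-density libraries held the 2 lowest shares of the 8.

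Phosphofructokinase commits sugar to glycolysis, and Pfkl and Pfkp, its liver and platelet forms, made up nearly all of its TPM. Pfkp stood at 182 and 231 CPM in H2R-deficient low-density libraries, against 529 and 580.4 CPM in the high-density ones (-1.43 ± 0.24, edgeR adjusted p = 0.00130; -0.53 with total counts, not called). Its wild-type level was 389 and 255 CPM at low density, against 319 and 381 CPM at high density, and these overlapped (-0.12 ± 0.23, edgeR adjusted p = 0.745). Pfkl stood at 144 and 135 CPM in H2R-deficient low-density libraries, against 251 and 217 CPM in the high-density ones (-0.74 ± 0.22, edgeR adjusted p = 0.0199), and its sign turned to 0.16 with total counts. Its wild-type levels overlapped, at 178 and 122 CPM at low density, against 155 and 202 CPM at high density. Pfkm, the muscle form, had 7 to 36 counts a library and was not called.

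Within the family, the Pfkl share of TPM was 62.4% and 55.2% in H2R-deficient low-density libraries, against 50.3% and 44.1% in the high-density ones. The wild-type shares were 49.2% and 50.2% at low density, against 50.9% and 53.1% at high density. Both H2R-deficient low-density libraries thus lay above the other 6, with no test made of a share from 2 libraries a group. Among the remaining upper enzymes, the isomerase Gpi1 (-0.92, edgeR adjusted p = 0.00801) and the aldolase Aldoa (-0.87, edgeR adjusted p = 0.00593) were lower in H2R-deficient low-density cells. With total counts those changes were -0.02 and 0.04, so the sign of Aldoa turned. The triosephosphate isomerase Tpi1 stood at -0.46 and was not called. Aldoa stood at 730.0 and 616 CPM in H2R-deficient low-density libraries, against 1403 and 1057 CPM in the high-density ones. Its wild-type levels were 702 and 630.4 CPM at low density, against 985 and 928 CPM at high density. Aldoc, the aldolase best known from brain, stood at 1.69 to 3.07 CPM in the 8 libraries and under 1% of aldolase TPM.

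Pfkfb3 and Pfkfb4 make and break down a fructose bisphosphate that is a strong activator of phosphofructokinase. Pfkfb4 stood at 42.3 and 43.4 CPM in H2R-deficient low-density libraries, against 144 and 109 CPM in the high-density ones (-1.57 ± 0.26, edgeR adjusted p = 0.00127; -0.66 with total counts, adjusted p = 0.0434). Its wild-type levels were 74.2 and 89.8 CPM at low density, against 189 and 113 CPM at high density (-0.88 ± 0.26, edgeR adjusted p = 0.0521; called in the fit with the block, adjusted p = 0.0425). On the TMM scale low-density libraries were below high-density ones in both genotypes, while over all gene counts the wild-type levels of Pfkfb4 overlapped. Pfkfb3 stood at 255 and 359 CPM in H2R-deficient low-density libraries, against 666 and 765 CPM in the high-density ones (-1.22 ± 0.27, edgeR adjusted p = 0.00474; -0.33 with total counts, not called). Wild-type cells held it at 389 and 268 CPM at low density, against 448 and 646 CPM at high density (-0.74 ± 0.27, edgeR adjusted p = 0.0901). Pfkfb3 made up 60.5% to 84.2% of the pair's TPM, with no separation by density.

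The later steps of glycolysis, from triose phosphate to pyruvate, hold the most abundant members. By TPM, which allows genes to be compared, Pkm had 966 to 1113 TPM and Gapdh 718 to 992 TPM in the 8 libraries, the highest medians of the 34. In both wild-type high-density libraries Slc16a3 stood above Gapdh, at 954 and 801 TPM, against 718 and 779 TPM for Gapdh. In H2R-deficient cells 5 of these 6 enzymes were lower at low density and none was higher, where 23.9% of all genes were lower and 30.0% higher. In wild-type cells none of the 6 was called, where 4.15% of all genes were lower and 8.51% higher. Pkm, the pyruvate kinase, stood at 1321 and 1379.5 CPM in H2R-deficient low-density libraries, against 2855 and 2691 CPM in the high-density ones (-1.04 ± 0.17, edgeR adjusted p = 0.00135; -0.14 with total counts, not called). Its wild-type level was 1564 and 1734 CPM at low density, against 2575 and 2439 CPM at high density (-0.60 ± 0.17, edgeR adjusted p = 0.0509; called in the fit with the block, adjusted p = 0.0429). The densities did not overlap in either genotype on this scale. Of the exon bases of Pkm, 15.3% are shared with Gm49759 on the same strand, so the counting may have split reads between them.

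Gapdh, which makes the NADH of glycolysis, stood at 1010.5 and 1158 CPM in H2R-deficient low-density libraries, against 2102 and 2076 CPM in the high-density ones (-0.95 ± 0.18, edgeR adjusted p = 0.00219). Pgk1, a kinase that makes ATP, stood at 356 and 379 CPM in H2R-deficient low-density libraries, against 742 and 714 CPM in the high-density ones (-0.99 ± 0.18, edgeR adjusted p = 0.00176). With total counts both were near level, at -0.05 and -0.08. The mutase Pgam1 (-0.81, edgeR adjusted p = 0.0115) and the enolase Eno1 (-0.74, edgeR adjusted p = 0.00750) were lower too, with signs that turned to 0.09 and 0.16 with total counts. Eno1 stood at 779 and 763 CPM in H2R-deficient low-density libraries, against 1409 and 1165 CPM in the high-density ones. Its wild-type levels were 789 and 731 CPM at low density, against 1003 and 905 CPM at high density. Several of these genes have processed pseudogenes in the mouse, and how reads with several matches were counted is not stated in the labels.

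Eno3, the muscle enolase, was a small part of enolase TPM. Its share was 1.81% and 1.95% in H2R-deficient low-density libraries, against 0.876% and 0.889% in the high-density ones. The wild-type shares were 2.19% and 1.93% at low density, against 1.96% and 1.86% at high density. As with Hk2, the H2R-deficient high-density libraries stood below the other 6. Eno3 stood at 4.65 and 4.91 CPM in H2R-deficient low-density libraries, against 4.03 and 3.38 CPM in the high-density ones, and was not called with TMM (0.37 ± 0.25, edgeR adjusted p = 0.228) but was with total counts (1.27, adjusted p = 0.00339).

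**Figure D2:**
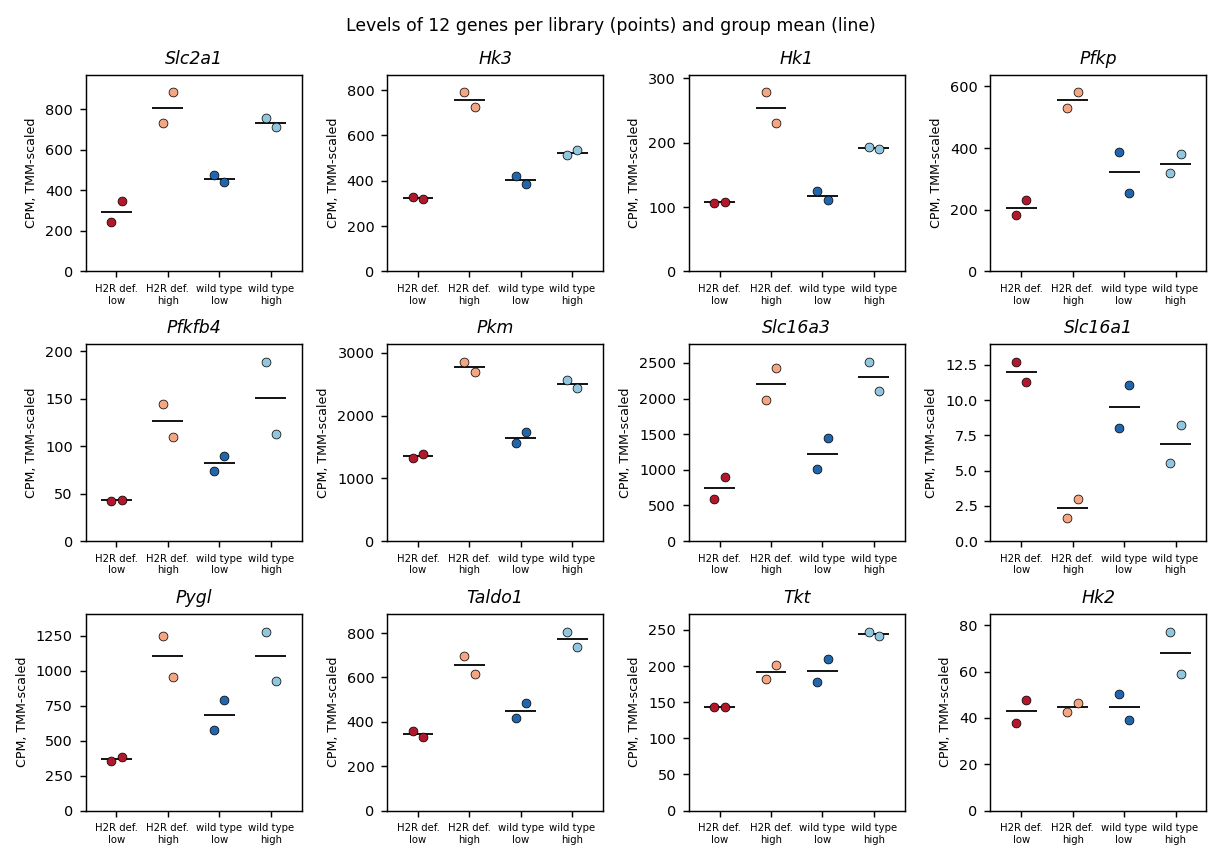
Level of 12 genes in each library, in CPM over TMM-scaled library sizes on a linear axis from 0, by group, with points for the 2 libraries of a group and a line for their mean. Low-density libraries lie below high-density libraries of the same genotype for Slc2a1, Hk3, Hk1, Pfkfb4, Pkm, Slc16a3, Pygl, Taldo1 and Tkt. Slc16a1 is lowest in the 2 H2R-deficient high-density libraries, at 1.63 and 3 CPM.

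Lactate dehydrogenase and the monocarboxylate transporters end the pathway. Ldha, the subunit that favours lactate, was 99.2% or more of the TPM of Ldha and Ldhb in every library. It stood at 464 and 471 CPM in H2R-deficient low-density libraries, against 709.8 and 718 CPM in the high-density ones (-0.61 ± 0.19, edgeR adjusted p = 0.0210), and its sign turned to 0.29 with total counts. In wild-type cells it stood at 480.4 and 448 CPM at low density, against 534 and 709 CPM at high density (-0.42 ± 0.19, edgeR adjusted p = 0.148). Ldha kept its call under 10 of the 17 alternatives, the fewest of the H2R-deficient calls. Ldhb, the heart subunit, had 13 to 46 counts a library and was not called.

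The carriers Slc16a1 and Slc16a3 moved in opposite directions in H2R-deficient cells. Slc16a3 encodes MCT4, the lactate exporter of glycolytic cells, and lies on chromosome 11 (120948480 to 120960868, plus strand). It stood at 592 and 893 CPM in H2R-deficient low-density libraries, against 1973 and 2434 CPM in the high-density ones (-1.57 ± 0.27, edgeR adjusted p = 0.00144; -0.68 with total counts, adjusted p = 0.0217). Its wild-type level was 1009.8 and 1441 CPM at low density, against 2514 and 2099 CPM at high density (-0.91 ± 0.26, edgeR adjusted p = 0.0518; called in the fit with the block, adjusted p = 0.0192). On this scale all 4 low-density libraries lay below all 4 high-density libraries.

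Slc16a1 encodes MCT1, a carrier of higher affinity for lactate that can also import it, and lies on chromosome 3 (104638668 to 104658462, plus strand). It had 459 and 319 counts in H2R-deficient low-density libraries, against 28 and 47 counts in the high-density ones. These were 12.7 and 11.3 CPM at low density, against 1.63 and 3 CPM at high density (2.38 ± 0.34, edgeR adjusted p = 0.000673; 3.29 with total counts, adjusted p = 4.75e-05). Wild-type libraries held 198 and 283 counts at low density, against 94 and 140 counts at high density. The CPM values there were 8.02 and 11.1 at low density, against 5.53 and 8.26 at high density, and overlapped (0.47 ± 0.31, edgeR adjusted p = 0.317; called higher with total counts, 1.02, adjusted p = 0.0325).

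The share of Slc16a1 in the TPM of both carriers separated the densities in all 8 libraries. It was 2.51% and 1.49% in H2R-deficient low-density libraries, against 0.0994% and 0.148% in the high-density ones. In wild-type libraries it was 0.945% and 0.914% at low density, against 0.264% and 0.470% at high density. Every low-density library was above every high-density library, a statement that no scaling between libraries can change. MCT4 transcripts still made up at least 97.5% in each library.

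**Figure D3:**
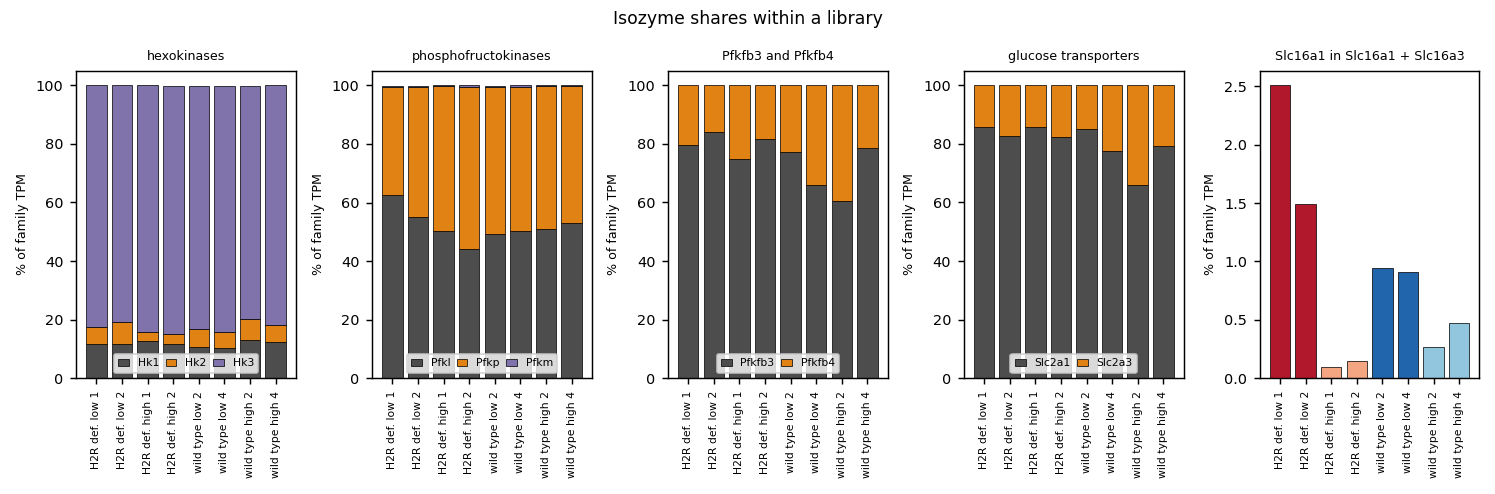
Share of each isozyme in the summed TPM of its family, in percent, one bar per library. The first 4 panels stack hexokinases, phosphofructokinases, Pfkfb3 with Pfkfb4 and glucose transporters, and the last panel shows Slc16a1 alone. Slc16a1 shares are 0.914% to 2.51% in low-density and 0.0994% to 0.470% in high-density libraries.

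Pyruvate dehydrogenase kinases hold pyruvate back from the mitochondria. Pdk1 stood at 19.0 and 17.7 CPM in H2R-deficient low-density libraries, against 29.6 and 25.1 CPM in the high-density ones (-0.58 ± 0.22, edgeR adjusted p = 0.0516; called in the fit with the block, adjusted p = 0.0418), and its sign turned to 0.33 with total counts. Pdk3 stood at 8.75 and 10.5 CPM in H2R-deficient low-density libraries, against 14.2 and 13.5 CPM in the high-density ones (-0.53 ± 0.21, edgeR adjusted p = 0.0598), with a sign that turned to 0.37. In wild-type cells Pdk1 stood at 21.3 and 14.0 CPM at low density, against 25.7 and 23.6 CPM at high density, and Pdk3 at 9.56 and 12.2 CPM, against 12.8 and 10.6 CPM. Pdk4, the form induced by fasting, had at most 1 count in a high-density library. It had 15 and 4 counts in H2R-deficient low-density libraries, against 0 and 0 in the high-density ones, where a floor of 3 counts allows up to 0.135 and 0.142 CPM. The wild-type libraries had 5 and 25 counts at low density, against 0 and 1 at high density. Pdk4 was not called in the fit without the block (edgeR adjusted p = 0.0528 in H2R-deficient and 0.0875 in wild-type cells). It was called higher in both genotypes with the block, with total counts and with no filter on low counts, and no fold change is given for so few counts. Pdk4 passed the filter on low counts only through low-density libraries, where it is high. Its calls in the filtered fits are therefore no support for a density difference.

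Neutrophils keep glycogen as a reserve of glucose. Pygl, the phosphorylase that releases it, stood at 354 and 379.9 CPM in H2R-deficient low-density libraries, against 1249 and 958 CPM in the high-density ones (-1.59 ± 0.25, edgeR adjusted p = 0.000923; -0.69 with total counts, adjusted p = 0.0217). Wild-type cells held it at 574 and 790.1 CPM at low density, against 1281 and 925 CPM at high density (-0.69 ± 0.24, edgeR adjusted p = 0.0815). Gys1, the synthase, was called lower in H2R-deficient cells (-0.73, edgeR adjusted p = 0.0199), with a sign that turned to 0.17 with total counts. Gbe1, the branching enzyme, was not called (-0.20). Of 18 other glycogen genes tested, from a list of 22, 3 were higher and 8 lower in H2R-deficient cells, where 30.0% of all genes were higher and 23.9% lower, and 3 were higher in wild-type cells, where 8.51% were. With total counts the split in H2R-deficient cells was 8 higher and 2 lower, against 51.6% and 2.61% of all genes.

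Pygb, the phosphorylase form best known from brain, was among those higher. Pygb stood at 13.5 and 13.2 CPM in H2R-deficient low-density libraries, against 2.22 and 1.85 CPM in the high-density ones (2.71 ± 0.26, edgeR adjusted p = 0.000204). Its wild-type level was 9.48 and 8.72 CPM at low density, against 2.77 and 4.13 CPM at high density (1.40 ± 0.25, edgeR adjusted p = 0.0139). In H2R-deficient cells Pygb and Pygl thus moved in opposite directions, as the carriers did. Stbd1, which tethers glycogen to membranes, and Phka1, a subunit of phosphorylase kinase, were higher in both genotypes, at under 3 CPM. Among the lower ones were Pgm2 (-1.16, edgeR adjusted p = 0.000698), a phosphoglucomutase, and Ppp1r3d (-1.89, edgeR adjusted p = 0.00107), which brings protein phosphatase to glycogen. With total counts Ppp1r3d was called lower (-1.0) and Pgm2 was not (-0.26).

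The pentose phosphate pathway turns phosphorylated glucose into NADPH and ribose. In H2R-deficient cells 3 of its 4 members were lower at low density, where 23.9% of all genes were. They were G6pdx (-0.98, edgeR adjusted p = 0.0125), Pgd (-0.84, edgeR adjusted p = 0.0250) and Taldo1 (-0.93, edgeR adjusted p = 0.00238). With total counts they stood at -0.09, 0.07 and -0.02. Taldo1 (chromosome 7, 141392199 to 141402968, plus strand) stood at 361 and 331 CPM in H2R-deficient low-density libraries, against 696 and 618 CPM in the high-density ones. Tkt, the transketolase, missed the threshold with TMM (-0.42 ± 0.17, edgeR adjusted p = 0.0578) and was called higher with total counts (0.49, adjusted p = 0.0270). Of 7 other genes of the pathway 3 were higher in H2R-deficient cells, where 30.0% of all genes were. In wild-type cells none was called, while the fit with the block called 2 higher, total counts 4 and DESeq2 1. Of all genes, the block called 11.1% and total counts 32.3% higher, and DESeq2 9.6% of those with an adjusted p. H6pd, which starts the same pathway inside the endoplasmic reticulum, stood at 37.6 and 22.1 CPM in H2R-deficient low-density libraries, against 5.72 and 5.17 CPM in the high-density ones (2.45 ± 0.29, edgeR adjusted p = 0.000322). The exons of G6pdx share 13.6% of their bases with Ikbkg on the other strand, and the strand setting of the counting is not stated in the labels.

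Genotype was compared within each density to ask whether loss of the receptor changes these genes. None of the 34 passed at high density, where 0.208% of all genes did, nor at low density, where 0.0% did (edgeR, adjusted p under 0.05). At an unadjusted p under 0.05 there were 10 of the 34 at high density, where 18.7% of all genes were, and 8 at low density, where 21.0% were. At high density, leaving out H2R-deficient library 1 lowered the 10 to 4, and leaving out wild-type library 2 lowered it to 2. At low density, leaving out H2R-deficient library 1 lowered the 8 to 2, and leaving out wild-type library 4 lowered it to 4. Limma-voom called none in either. DESeq2, which called 6.80% of the genes it gave an adjusted p at high density and 9.72% at low density, called 2 in each.

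At high density, on the TMM scale, H2R-deficient libraries lay above wild-type libraries without overlap for 17 of the 34 genes and below for 5. The shares of all genes were 21.1% and 25.8%. Over all gene counts some of the 17 overlapped, among them Pkm, Ldha, Pfkl, Pfkfb3 and Gys1. The median difference was 0.18, against -0.05 over all genes, and with total counts 0.11, against -0.12. The glycolytic enzymes Hk3, Pfkp, Pgk1, Gapdh and Eno1 were among the 17. Hk3 averaged 758 ± 44.3 CPM in H2R-deficient and 523 ± 16.3 CPM in wild-type high-density libraries (SD, n = 2 each; difference 0.53 ± 0.16 SE, edgeR adjusted p = 0.149; DESeq2 adjusted p = 0.0325). Pgk1 averaged 728 ± 19.3 CPM in H2R-deficient and 514 ± 47.8 CPM in wild-type high-density libraries (0.50 ± 0.18, edgeR adjusted p = 0.183). Slc16a1 averaged 2.31 ± 0.964 CPM in H2R-deficient and 6.89 ± 1.93 CPM in wild-type high-density libraries (-1.58 ± 0.34, edgeR adjusted p = 0.0937; DESeq2 adjusted p = 0.00327). Hk2, Eno3, Taldo1 and Tkt were the other 4 below, and none of the 5 was called by edgeR.

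At low density, on the TMM scale, H2R-deficient libraries lay above wild-type libraries without overlap for 2 of the 34 genes and below for 13. The shares of all genes were 33.5% and 26.6%. The median difference was -0.11, against 0.05 over all genes, and with total counts 0.14, against 0.32. Pygl averaged 367 ± 18.2 CPM in H2R-deficient and 682 ± 153 CPM in wild-type low-density libraries (-0.89 ± 0.24, edgeR adjusted p = 0.116; DESeq2 adjusted p = 0.0149). Pfkfb4 averaged 42.8 ± 0.777 CPM in H2R-deficient and 82.0 ± 11.1 CPM in wild-type low-density libraries (-0.94 ± 0.26, edgeR adjusted p = 0.116; DESeq2 adjusted p = 0.0216). Slc2a1, Slc2a3, Slc16a3 and G6pdx also lay below in both H2R-deficient libraries. The 2 above were Slc16a1 and Gbe1.

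The density effect itself was set between genotypes in the same fit. None of the 34 differences passed, and none of all genes did, while 8 of the 34 had an unadjusted p under 0.05, as did 21.1% of all genes. Leaving out library 1 of the H2R-deficient low-density group lowered the 8 to 3. It was 5 when library 1 of the H2R-deficient high-density group, library 2 of the wild-type low-density group or library 4 of the wild-type high-density group was left out. The lowest adjusted p-values belonged to Slc16a1 (1.91 ± 0.46, edgeR adjusted p = 0.0915), Pfkp (-1.31 ± 0.33, edgeR adjusted p = 0.0933) and Hk3 (-0.85 ± 0.23, edgeR adjusted p = 0.0987). DESeq2 called these 3, with adjusted p-values of 0.00867, 0.00842 and 0.0117, and called 10.5% of the genes it gave an adjusted p. Total counts called Slc16a1 (2.27, edgeR adjusted p = 0.0388), where 4.17% of all genes were called in that direction. The larger count of calls in H2R-deficient than in wild-type cells is therefore no shown difference between genotypes for any of these genes in the main test.

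Genes next to the pathway were counted from lists. The list for the tricarboxylic acid cycle, which burns acetyl groups in the mitochondria, also held cytosolic enzymes such as Mdh1. Of its 20 genes, 12 were higher and none lower in H2R-deficient low-density cells, with a median of 0.95. Of all genes, 30.0% were higher and 23.9% lower. In wild-type cells 5 of 20 were higher and none lower, with a median of 0.30, where 8.51% of all genes were higher and 4.15% lower. Mdh1, a cytosolic malate dehydrogenase, stood at 37.8 and 33.2 CPM in H2R-deficient low-density libraries, against 5.66 and 6.63 CPM in the high-density ones (2.53 ± 0.25, edgeR adjusted p = 0.000214). Its wild-type levels were 20.2 and 20.5 CPM at low density, against 6.83 and 11.2 CPM at high density (1.17 ± 0.24, edgeR adjusted p = 0.0209). Suclg2, a subunit of succinyl-CoA ligase, stood at 9.94 and 9.47 CPM in H2R-deficient low-density libraries, against 0.934 and 1.53 CPM in the high-density ones (2.98 ± 0.37, edgeR adjusted p = 0.000392). Its wild-type difference was 2.03 ± 0.38 (edgeR adjusted p = 0.0161). Cs and Mdh2, also of the list, overlapped between densities in H2R-deficient cells. Cs stood at 75.0 and 78.3 CPM at low density, against 76.9 and 71.9 CPM at high density. Mdh2 stood at 65.3 and 64.6 CPM at low density, against 68.9 and 63.9 CPM at high density. The medians of the cycle and of the 34 genes lay on opposite sides of the median of all genes, and with total counts 19 and 14 of the 20 were called higher in H2R-deficient and wild-type cells, against 51.6% and 32.3% of all genes.

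The list for entry of pyruvate into the mitochondria had 7 of 12 genes higher and 1 lower in H2R-deficient low-density cells. With total counts 10 were higher and none lower. The shares of all genes were 30.0% higher and 23.9% lower with TMM, and 51.6% and 2.61% with total counts. Dlat, a core subunit of the pyruvate dehydrogenase complex, was higher (1.77 ± 0.23, edgeR adjusted p = 0.000470), as were Pdhx (1.67), which anchors dihydrolipoamide dehydrogenase in it, and the phosphatase Pdp2 (2.28), which switches the complex on. Dld, that dehydrogenase, was lower (-0.57), with a sign that turned to 0.33 with total counts. The pyruvate carrier genes Mpc1 and Mpc2 were not among those higher with TMM. Mpc1 stood at 16.4 and 17.6 CPM in H2R-deficient low-density libraries, against 18.4 and 19.1 CPM in the high-density ones. Mpc2 stood at 9.91 and 10.3 CPM there, against 12.5 and 14.3 CPM. In wild-type cells Mpc1 stood at 16.3 and 20.3 CPM at low density, against 32.8 and 25.4 CPM, and Mpc2 overlapped. Pdhx was the 1 gene of the list called in wild-type cells (1.22 ± 0.31, edgeR adjusted p = 0.0359). Of 5 genes tested for glucose release and gluconeogenesis, 4 were higher in H2R-deficient cells and 1 in wild-type cells, against 30.0% and 8.51% of all genes, led by G6pc3, a glucose phosphatase that neutrophils need (2.58 ± 0.32, edgeR adjusted p = 0.000407, and 1.67 ± 0.32, edgeR adjusted p = 0.0181).

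The oxygen-sensing list, whose factor Hif1a drives many glycolytic genes, had 2 of 18 genes higher and 10 lower in H2R-deficient low-density cells, against 30.0% and 23.9% of all genes. In wild-type cells 1 was higher and 1 lower, against 8.51% and 4.15% of all genes. The fit with the block called 2 higher and 4 lower there, against 11.1% and 6.52%. With total counts 4 were higher and 1 lower in H2R-deficient cells, against 51.6% and 2.61% of all genes. Hif1a stood at 337 and 442 CPM in H2R-deficient low-density libraries, against 777 and 909 CPM in the high-density ones (-1.11 ± 0.19, edgeR adjusted p = 0.00160). In wild-type cells it stood at 581 and 614 CPM at low density, against 999 and 954 CPM at high density (-0.71 ± 0.19, edgeR adjusted p = 0.0434). Its partner Arnt (-1.07), the hydroxylase Egln3 (-1.62) and the demethylase Kdm3a (-1.18) were lower in H2R-deficient cells. With total counts Hif1a, Arnt and Kdm3a were not called there and Egln3 was (-0.73, adjusted p = 0.0299). Epas1, the related factor HIF2 alpha, was higher in both genotypes at under 4 CPM. Among 13 other transporters and isozymes tested from a list of 24, Slc2a6, a transporter of lysosomal membranes, was lower in H2R-deficient (-1.14 ± 0.22, edgeR adjusted p = 0.00272) and wild-type cells (-1.0 ± 0.22, edgeR adjusted p = 0.0258), and Tigar and Eno2 were higher in H2R-deficient cells. None of these lists had a gene called between genotypes by edgeR with TMM.

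**Figure D4:**
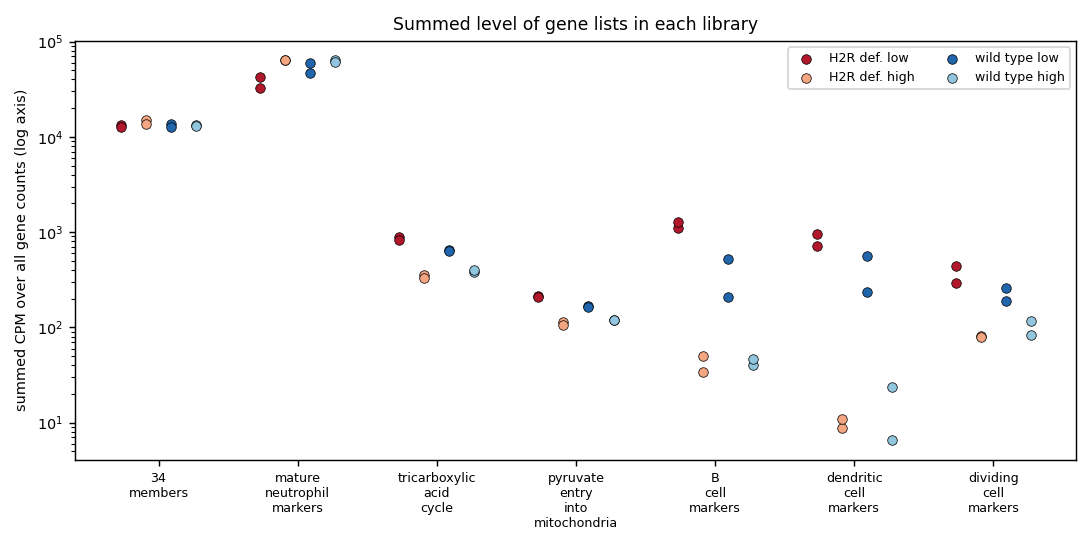
Summed level of gene lists in each library, in CPM over all gene counts on a log axis, by group, with 1 point per library. The 34 glucose metabolism genes lie between 12692 and 15035 CPM in the 8 libraries, while the tricarboxylic acid cycle list, the pyruvate entry list and the B cell, dendritic cell and dividing cell markers are higher in the low-density libraries of each genotype.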

How the data were processed

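RNA of 8 libraries was read as gene counts. Per the submitters' processing notes, bcl2fastq 2.17.1.14, Trimmomatic 0.36, STAR 2.5.2b and featureCounts of Subread 1.5.2 were used with GRCm38. The deposited values were raw counts per gene, with no normalization. The strand setting and the treatment of reads with several matches are not stated in the labels. Totals were 19862716 to 24199215 counts; floors of 3 counts cover counting error only.

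Genes were filtered with filterByExpr and tested in 1 fit over the 4 groups with edgeR 4.0.16 (quasi-likelihood, robust, TMM) in R 4.3.3. The fit was also run on simulated counts in which most genes were unchanged, so that run cannot test the choice of scaling. P-values were adjusted by Benjamini-Hochberg over all genes. DESeq2 1.42.0, limma 3.58.1, other scalings and filters, a block and leaving out each library were alternatives. Deviations of same-numbered low- and high-density libraries correlated at 0.326 in H2R-deficient and 0.155 in wild-type cells. The block took the numbers to pair them, which the labels do not state. TPM used exon lengths of the GENCODE annotation. All members are accounted for. Values per library are given for members with the lowest adjusted p and for isozyme families, and up to 3 called genes for each other list. The members and lists were chosen with earlier results of these data known.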

Additional observations from a re-analysis of the deposited data

How the results depend on the processing

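For density in wild-type cells, 2 of the 34 genes were called with TMM. Total counts only called 2 other genes, both higher: Slc16a1 and Pdk4 were already positive with TMM, and Hk1 and Taldo1 stayed negative. DESeq2's size factors in edgeR gave 6, DESeq2 itself 15, limma-voom 4, no filter on low counts 9, the fit with the replicate block 9 and a fit of the compared groups alone 0; leaving out 1 library gave 0 to 3. In H2R-deficient cells the count was 23, with 10 from total counts (6 higher and 4 lower) and 14 to 25 when 1 library was left out. The counts between genotypes were 0, and 0 to 0 when 1 library was left out, against 2 with DESeq2 and 2 with no filter at high density, and 2 with DESeq2 and 5 with no filter at low density. For the difference of the density effect the count of 0 became 1 with total counts, 3 with DESeq2 and 2 with no filter, and was 0 to 0 when 1 library was left out. With total counts 15 of the 34 changes took the other sign in H2R-deficient cells, among them Pdk1 0.33, Pdk3 0.37, Pgd 0.07, Eno1 0.16, Gys1 0.17, Ldha 0.29, Aldoa 0.04, Pfkl 0.16, Tkt 0.49 and Pgam1 0.09. In wild-type cells 20 of the 34 did, among them Pgk1 0.17, Ldha 0.15, Aldoa 0.06 and Hk3 0.20. Of 14909 genes, DESeq2's size factors in edgeR called 1179 higher and 879 lower for density in wild-type cells, and limma-voom 970 and 593. No filter called 2190 higher and 1171 lower of 28092, and the compared groups alone 443 and 165 of 13731. Between genotypes no filter called 332 higher and 763 lower at high density, and 631 and 729 at low density. For the difference of the density effect it called 901 higher and 309 lower. The cause of the other shifts was not tested. Between genotypes no paired analysis was possible, because the groups share only library number 2. Between densities the replicate block was such an analysis, on a pairing that the labels do not state. It changed no member's call beyond those named in the report. The counts it left as they were are those of the tricarboxylic acid cycle, pyruvate entry and gluconeogenesis lists. Of 84 mean isozyme shares per group, 62 moved by at least the SD of the 2 libraries when counts replaced TPM. Depth limits Pdk4, Pfkm and Ldhb, which had few counts.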
